A study of Mus musculus with 12 samples.

Results

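PreMegE cells, progenitors in the bone marrow from which platelet-forming megakaryocytes and red cells arise, were compared with multipotent progenitors (MPP), a population close to the stem cell that feeds the lymphoid and myeloid lineages. Arrays were chosen by their sample titles, which gave 4 PreMegE arrays and 3 MPP arrays, 7 of the 12 arrays in the series. Both populations came from bone marrow of C57Bl/6 mice aged 10 to 12 weeks, with no culture and no agent given. PreMegE cells were isolated as lineage-negative cells that carried Kit and CD150 and lacked Sca1, CD105 and CD41. MPP were isolated as lineage-negative cells that carried Kit, Sca1 and Flt3 and lacked CD150. The PreMegE arrays came from an earlier study of the same laboratory and the MPP arrays were made for this one, so study and cell type cannot be told apart in any value below. The labels do not say how many mice stand behind an array or whether replicates came from separate mice, so the p-values rest on differences among arrays that may be technical replicates. The arrays measured total RNA of sorted populations, in which fewer cells of a type and less of a transcript per cell cannot be told apart.

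Red cell and megakaryocyte development is driven by a small circuit of transcription factors around Gata1, with its cofactor Zfpm1 (FOG1), the Tal1-Lmo2-Ldb1 complex and the red cell factor Klf1, and red cell precursors are sustained by erythropoietin acting through its receptor. Lymphoid and myeloid development uses other factors, among them Spi1 (PU.1), the C/EBP family, Irf8, Gfi1 and Notch1, and other receptors, among them Flt3 and those of the colony-stimulating factors. Flt3-positive multipotent progenitors are known to carry low levels of lymphoid and myeloid transcripts before they commit, a state called priming.

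Values are log2 intensities of 1 probe set per gene, and differences are PreMegE minus MPP on that scale with their standard error, so that a difference of 1 is 2-fold. The lower quartile over genes was 3.32 in PreMegE and 3.28 in MPP. A level near or below it may not stand above background, and a difference against such a level is not an exact fold. Genes given below without array levels include some with a mean under it. Among them are Id3, Il7r, Cdkn1c, Cd68 and Emcn in PreMegE, and Kel, Gp1bb and Epb42 in MPP. Array medians were between 14.4 and 15.6 on the linear scale over all 12 arrays. Across genes, PreMegE arrays correlated with each other at r of 0.984 to 0.992 and with MPP arrays at 0.932 to 0.940, and MPP arrays with each other at 0.994. For beta-actin, the control probe sets near the 3' end and near the 5' end differed (log2 of 3' over 5', a measure of RNA integrity and labelling) by 3.49 to 4.65 on the PreMegE arrays and 2.35 to 2.68 on the MPP arrays. It did not overlap between the groups, and its part in the results below was not tested. For Gapdh the same log2 ratio was 3.12 to 4.39 in PreMegE and 3.62 to 3.88 in MPP, which overlapped.

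Gata1 and Car1, set as markers of PreMegE, and Dntt and Mpo, set as markers of MPP, were each higher in the population they mark. These markers were chosen with earlier results of these data known, so they are not an independent check of identity. Gata1, the master regulator of red cell and megakaryocyte genes, stood at 10.48, 10.54, 10.96 and 10.65 on the PreMegE arrays and at 5.95, 5.92 and 6.01 on the MPP arrays. Car1, a carbonic anhydrase of early red cell precursors, stood at 12.38, 12.60, 12.83 and 12.87 in PreMegE and at 6.31, 5.66 and 6.32 in MPP. All 4 PreMegE arrays lay above all MPP arrays for both genes, with differences of 4.70 ± 0.14 (adjusted p = 4.6e-12) and 6.57 ± 0.23 (adjusted p = 1.4e-11). Dntt, the terminal transferase of lymphoid progenitors, stood at 4.66, 4.14, 4.56 and 4.06 in PreMegE and at 11.98, 11.82 and 11.96 in MPP, a difference of -7.57 ± 0.22 (adjusted p = 2.4e-12). Mpo, the myeloperoxidase of granulocyte and monocyte precursors, stood at 7.90, 5.23, 6.35 and 4.87 in PreMegE and at 11.35, 11.25 and 11.56 in MPP. PreMegE replicate 1 was the highest of its group for Mpo yet below every MPP array, and the difference was -5.30 ± 0.55 (adjusted p = 2e-06).

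Transcripts behind the sort are given as a description, since the gates used their proteins. Flt3 stood at 6.27, 6.31, 5.19 and 5.91 in PreMegE and at 10.10, 9.95 and 10.00 in MPP. Slamf1, which encodes CD150, stood at 6.58, 6.79, 7.02 and 6.91 in PreMegE and at 3.86, 3.53 and 3.77 in MPP, so both differed in the direction of the gates. Kit, the stem cell factor receptor on which both gates were positive, stood at 9.84, 9.66, 10.46 and 10.13 in PreMegE and at 9.89, 10.10 and 9.92 in MPP, with overlapping arrays and a difference of 0.05 ± 0.25, while its next brightest probe set gave 1.10. CD105 and CD41 were gated out of PreMegE cells, and their transcripts were not lower there. Eng, which encodes CD105, differed by 0.37 ± 0.22, and Itga2b, which encodes CD41, by 0.63 ± 0.17, with 8.14, 8.32, 8.82 and 8.52 on the PreMegE arrays and 7.88, 7.70 and 7.89 on the MPP arrays. Ly6a, which encodes Sca1, had no probe set named for it alone and was not analysed here.

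Of 18193 genes, 6004 (33%) passed the test at an adjusted p under 0.05, with 2454 (13.5%) higher and 3550 (19.5%) lower in PreMegE. These percentages are the background against which every count of a gene group below is to be read, and the median difference over all genes was 0.02. Quantile normalisation of the deposited values gave 3283 higher and 3120 lower, so the share of higher genes among those called was 51.3% there, against 40.9% in the values as deposited and 46.2% after cyclic loess. At least 2-fold differences were found for 957 genes higher (5.26%) and 1687 lower (9.27%) in PreMegE. Falls outnumbered rises at each size, with 204 rises and 477 falls of at least 4-fold, 62 and 187 of at least 8-fold, 28 and 68 of at least 16-fold, and 11 and 31 of at least 32-fold. PreMegE and MPP arrays did not overlap for 7158 genes (39.3%), of which 5692 were called.

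**Figure D1:**
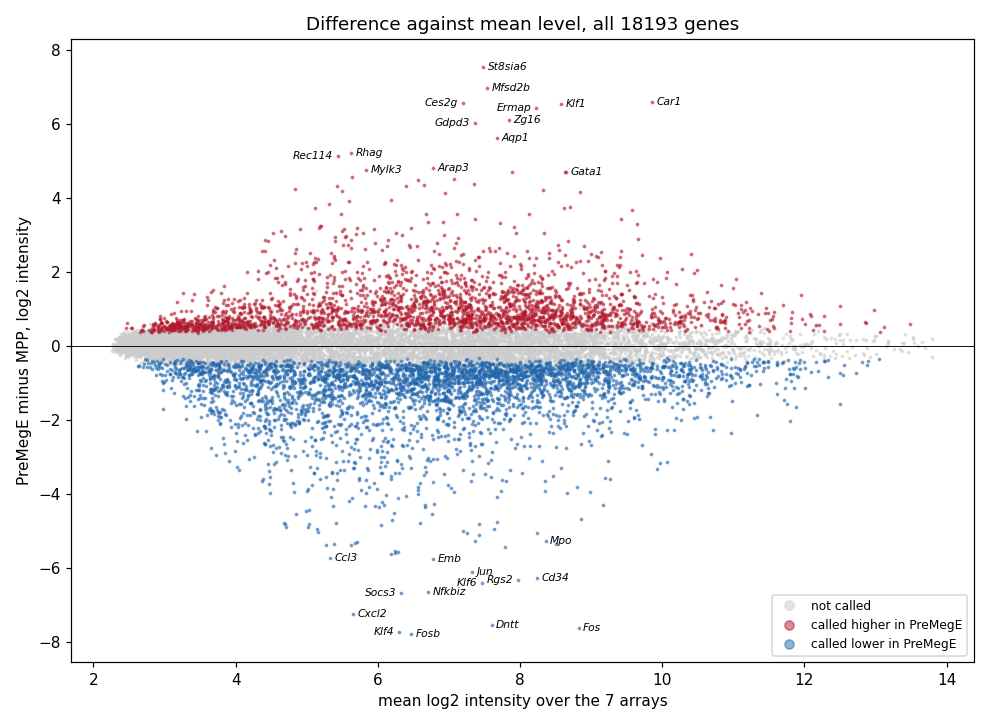
Difference between PreMegE and MPP (log2 intensity, PreMegE minus MPP) against the mean log2 intensity over the 7 arrays, 1 point per gene for 18193 genes. Red points are called higher in PreMegE, blue points lower and grey points are not called. Among the named genes, St8sia6 rose most at 7.52 and Fosb fell most at -7.79.

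Red cell and megakaryocyte transcription factors were more often higher than lower in PreMegE, with Klf1 and Gata1 showing the largest rises. Of 22 factors, 11 were called higher, 5 lower and 6 were not called, with a median difference of 0.49. Klf1, the factor that activates globin and red cell membrane genes, stood at 11.03, 11.19, 11.79 and 11.45 in PreMegE against 4.94, 4.75 and 4.87 in MPP, a difference of 6.52 ± 0.19 or 91.5-fold. Every PreMegE array exceeded every MPP array by a wide margin. Zfpm1, the cofactor that Gata1 binds, stood at 9.57, 9.40, 10.17 and 9.55 in PreMegE against 7.31, 7.09 and 7.31 in MPP, a difference of 2.43 ± 0.17. Gata2, the GATA factor of stem and early progenitor cells, stood at 10.87, 10.68, 10.97 and 10.81 in PreMegE and, already high there, at 9.01, 8.87 and 9.18 in MPP, a difference of 1.81 ± 0.13. Gfi1b, a repressor needed in both red cells and megakaryocytes, rose by 1.57 ± 0.18, and Zbtb7a, a repressor of fetal globin, by 1.55 ± 0.14. Tal1, the bHLH factor of the complex that joins Gata1 on DNA, rose by 1.02 ± 0.16, and Ldb1, which bridges that complex, by 0.95 ± 0.23. Its LIM-domain partner Lmo2 stood at 11.28, 11.50, 11.24 and 11.60 in PreMegE and 11.27, 11.36 and 11.44 in MPP, with overlapping arrays and a difference of 0.05 ± 0.15. Klf3, a repressor of the Klf family, rose by 1.89 ± 0.24 and Cbfa2t3 (ETO2), a corepressor of Tal1, by 1.77 ± 0.20. The next brightest probe sets of these last genes gave 0.24 for Klf3 (adjusted p = 0.48) and -0.16 for Cbfa2t3 (adjusted p = 0.676), neither of them called.

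Nfe2 also rose, and the other factors of the list fell or did not pass, among them several that stem cells share. Lyl1, a bHLH relative of Tal1 active in stem cells, stood at 8.34, 8.25, 8.33 and 8.18 in PreMegE and 9.62, 9.06 and 9.31 in MPP and fell by 1.06 ± 0.15. Etv6, an ETS repressor of stem cells and megakaryocytes, differed by -0.97 ± 0.19, the small Maf protein Mafk by -0.83 ± 0.18, and Mllt3, a stem cell and red cell cofactor, by -0.79 ± 0.21. Runx1, the factor of stem cells and megakaryocytes, differed by 0.18 ± 0.17 (adjusted p = 0.468) and Fli1, the ETS factor of megakaryocytes, by 0.16 ± 0.25 (adjusted p = 0.695). Mafg and Bach1, which bind heme-regulated elements together, differed by -0.08 ± 0.14 and -0.07 ± 0.18, and Sox6, which silences embryonic globin, by 0.42 ± 0.24. None of these 5 was called on its brightest probe set, whereas the next brightest ones were called higher for Fli1 (1.01, adjusted p = 0.0252), Mafg (0.78, adjusted p = 0.00784) and Bach1 (0.89, adjusted p = 0.0151). Sox6 passed without PreMegE replicate 2 (0.0279). Nfe2, the basic zipper factor of platelet formation, rose by 0.55 ± 0.16, a call that ended without MPP replicate 2 (0.0563). The call of Mllt3 ended without MPP replicate 1 (0.0641). Erg, an ETS factor of stem cells, differed by -0.66 ± 0.24 (adjusted p = 0.0442), but by 0.34 on its next brightest probe set. The call of Erg ended without MPP replicate 1 (0.113), 2 (0.0902) or 3 (0.112), without PreMegE replicate 1 (0.119) or 2 (0.116), and under both rescalings. Without MPP replicate 1 the list held 3 members called lower in place of 5.

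**Figure D2:**
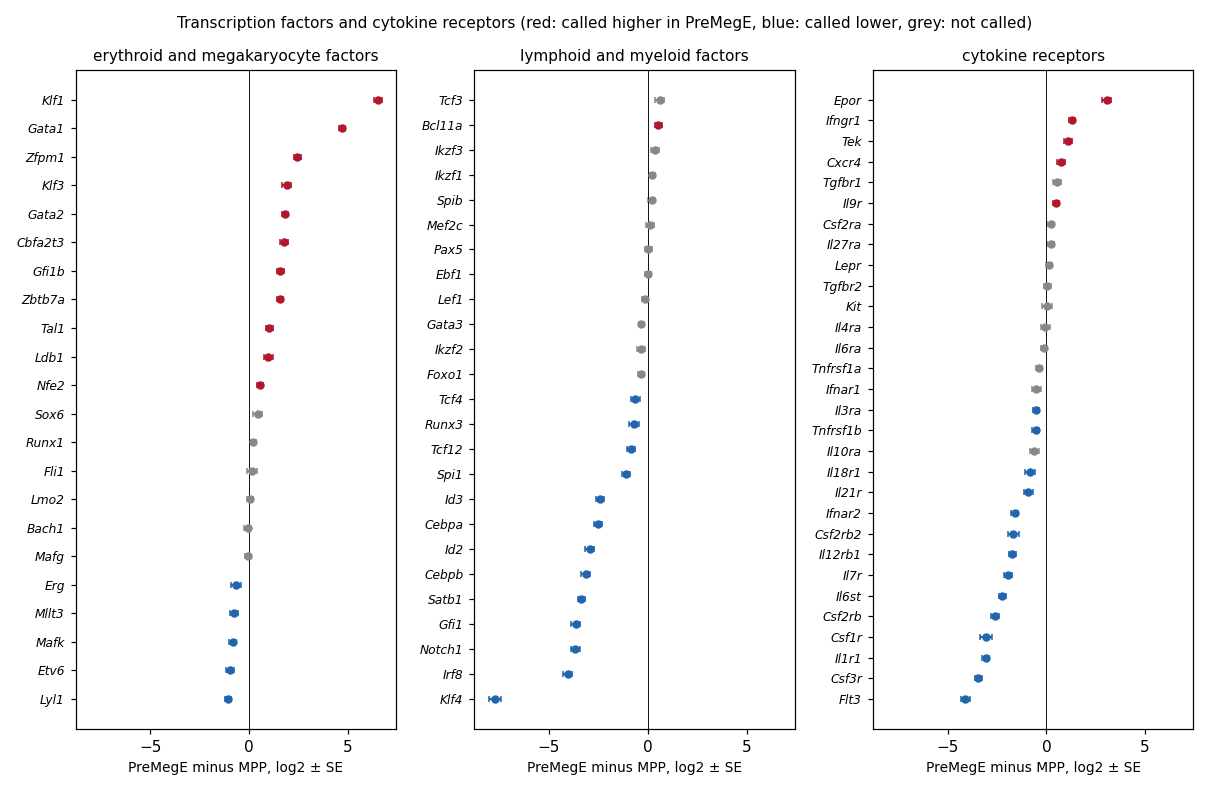
Difference between PreMegE and MPP (log2 intensity, PreMegE minus MPP, bars ± SE of the fit) for each measured member of 3 gene lists, ordered by difference. Klf1 and Gata1 lead the red cell and megakaryocyte factors, and Klf4 shows the largest fall among the lymphoid and myeloid factors. Epor and Flt3 stand at opposite ends of the receptors, and MPP were sorted as positive for Flt3.

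The promoters of 3 genes that were higher in PreMegE are shown so that the core letters of GATA and Klf motifs can be looked up in them. Each is the 250 bases before the start of the gene in RefSeq on build GRCm38.p6, printed 5′ to 3′ on the gene's own strand. Capitals mark AGATAA, a core of GATA sites, and CACCC, a core of Klf sites, on either strand, so that TTATCT and GGGTG are the reversed forms. The 2 motifs do not overlap each other in these windows. Klf1 lies at chr8:84901732-84901981 on the plus strand and holds 1 CACCC and no AGATAA. Other forms of GATA sites were not looked for in any window. Epor lies at chr9:21963577-21963826 on the minus strand and holds 1 AGATAA and 2 CACCC, and Icam4 lies at chr9:21029182-21029431 on the plus strand with 1 of each.
Klf1: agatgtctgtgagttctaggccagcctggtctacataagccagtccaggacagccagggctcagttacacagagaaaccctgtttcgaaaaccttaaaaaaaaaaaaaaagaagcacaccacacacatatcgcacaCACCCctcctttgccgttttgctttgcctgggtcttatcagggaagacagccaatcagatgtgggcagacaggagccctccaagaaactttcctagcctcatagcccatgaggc
Epor: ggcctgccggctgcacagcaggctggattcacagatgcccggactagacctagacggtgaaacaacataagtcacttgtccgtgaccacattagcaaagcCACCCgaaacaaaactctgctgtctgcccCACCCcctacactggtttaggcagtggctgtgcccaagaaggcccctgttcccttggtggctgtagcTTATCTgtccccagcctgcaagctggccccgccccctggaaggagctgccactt
Icam4: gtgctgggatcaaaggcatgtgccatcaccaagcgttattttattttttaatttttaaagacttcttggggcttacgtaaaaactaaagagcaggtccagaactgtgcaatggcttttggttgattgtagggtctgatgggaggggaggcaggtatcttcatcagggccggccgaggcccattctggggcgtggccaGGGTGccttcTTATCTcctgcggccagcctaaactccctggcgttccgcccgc

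These letters were about as frequent among the genes that rose as among all genes. A window was found for 14452 of the genes tested. AGATAA on either strand was present in 6.82% of 2010 genes called higher in PreMegE, in 5.74% of 2927 called lower and in 7.47% of all 14452. CACCC was present in 55.2% of the higher, 58.5% of the lower and 56.9% of all. Over the 32851 RefSeq promoter windows the shares were 9.99% and 52%. A match is a run of letters and not a measured binding site.

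Red cell membrane and surface genes had the highest median difference of the lists. Of 31 measured, 18 were called higher, 4 lower and 9 were not called, with a median difference of 0.87. Ermap, an erythroid membrane protein that carries a blood group antigen, stood at 10.51, 11.05, 11.13 and 11.22 in PreMegE and at 4.56, 4.61 and 4.52 in MPP, a difference of 6.41 ± 0.25. Mfsd2b, which exports sphingosine-1-phosphate from red cells and platelets, stood at 10.54, 10.31, 10.89 and 10.33 in PreMegE and at 3.33, 3.53 and 3.80 in MPP, a difference of 6.97 ± 0.18, and belongs to the platelet list as well. Aqp1, the water channel of red cells, stood at 9.76, 10.11, 10.02 and 10.42 in PreMegE and at 4.49, 4.80 and 4.16 in MPP, a difference of 5.60 ± 0.20. For each of these genes the PreMegE arrays lay within 1 log2 unit of each other and far above all MPP arrays. Rhag, the Rh-associated glycoprotein, stood at 8.08, 7.43, 8.18 and 7.73 in PreMegE and at 2.56, 2.54 and 2.85 in MPP, where it was under the lower quartile, and the difference was 5.20 ± 0.22. Kel, the Kell antigen (4.16 ± 0.22), Slc14a1, the urea transporter (3.05 ± 0.20), Icam4, the Landsteiner-Wiener antigen (2.31 ± 0.13), and Cd59a, an inhibitor of complement (2.21 ± 0.17), rose as well. Aqp9, a glycerol channel, differed by 2.54 ± 0.17 on its brightest and by 0.30 on its next brightest probe set. Slc2a1, the glucose transporter GLUT1, stood at 6.13, 6.54, 6.14 and 6.38 in PreMegE and at 7.93, 7.57 and 7.80 in MPP and fell by 1.47 ± 0.20, and the calcium pump Atp2b4 fell by 1.22 ± 0.19. Cd24a, a surface glycoprotein, fell by 0.74 ± 0.19, with -0.25 on its next brightest probe set. Cd47, the "do not eat me" signal, differed by -0.70 ± 0.14, but its next brightest probe set was called in the opposite direction at 0.67 (adjusted p = 0.00285).

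Genes of heme and iron handling rose in part, while several products of mature red cells were near the lower quartile in both populations. Of 30 heme and iron genes, 13 were called higher, 4 lower and 13 were not called, with a median of 0.16. Blvrb, a biliverdin reductase abundant in red cells, stood at 8.77, 8.97, 8.85 and 8.72 in PreMegE and at 5.73, 5.02 and 5.48 in MPP, a difference of 3.42 ± 0.19. Slc40a1, the iron exporter ferroportin, stood at 9.36, 9.30, 9.27 and 9.23 in PreMegE and at 6.07, 6.31 and 5.87 in MPP, a difference of 3.20 ± 0.34. Neither gene's arrays overlapped between the groups. Enzymes of the heme pathway moved in both directions. Alad, Cpox, Urod and Fech rose by 1.49 ± 0.20, 1.24 ± 0.17, 0.94 ± 0.15 and 0.61 ± 0.14. Alas1, the first enzyme of the pathway in most cells, stood at 6.86, 6.88, 7.64 and 7.48 in PreMegE and at 8.05, 7.67 and 8.34 in MPP and fell by 0.80 ± 0.21, with -0.13 on its next brightest probe set, which was not called. The call of Alas1 ended without MPP replicate 3 (0.0577). Steap3, the iron reductase of red cell precursors, rose by 2.01 ± 0.20 and Tfr2, the transferrin receptor of the liver and of red cell precursors, by 0.63 ± 0.14. Abcg2, a transporter that exports porphyrins and marks stem cells, fell by 1.24 ± 0.15. The heme transporter Slc48a1 differed by -0.68 ± 0.21, but by 1.03 on its next brightest probe set (adjusted p = 0.00055). Fth1, the ferritin heavy chain, differed by -0.37 ± 0.14, and its next brightest probe set was called lower at -1.67 (adjusted p = 8.02e-06). The call of Slc48a1 ended without MPP replicate 1 (0.0674) or 3 (0.0765) and without PreMegE replicate 1 (0.0567), 2 (0.0513) or 4 (0.0718). On its brightest probe set, the call of Fth1 ended when any single MPP replicate was left out (0.0818, 0.11 and 0.141 for 1, 2 and 3). It also ended there without PreMegE replicate 2 (0.0953), 3 (0.0771) or 4 (0.0904), and under both rescalings. The count of falls in this group depended on single arrays, with 2 without MPP replicate 1, 1 without MPP replicate 3, 2 without PreMegE replicate 2 and 2 without PreMegE replicate 4.

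Alas2, the first enzyme of heme synthesis in red cells, stood at 3.37, 3.07, 3.22 and 3.07 in PreMegE and 3.02, 4.06 and 3.69 in MPP and was not called. Slc4a1, the band 3 anion exchanger, stood at 3.20, 3.27, 3.08 and 3.23 in PreMegE and 3.35, 4.05 and 3.09 in MPP, and it was not called either. The globins Hba-a1 and Hbb-b2 differed by 0.02 ± 0.16 and -0.19 ± 0.17, with all 7 arrays between 2.79 and 3.78. These 4 genes lay at or within 1 log2 unit of the lower quartile, and the arrays of all but Hbb-b2 overlapped between the groups. Hba-a2 was the member of the late red cell list called lower, at 3.63, 3.79, 3.69 and 3.66 in PreMegE and at 4.70, 4.11 and 4.69 in MPP, a difference of -0.81 ± 0.22 (adjusted p = 0.00917), although Hba-a1 and Hba-a2 are near-identical copies whose probes may not tell them apart. That call ended without MPP replicate 1 (0.0521) or 3 (0.0511). Of 13 genes of late red cells, 5 were higher, 1 was lower and 7 were not called, with a median of 0.02 and a count of 3 higher without MPP replicate 3. Tspo2, a membrane protein of maturing red cells, was the exception in size, at 8.16, 7.82, 8.66 and 8.31 in PreMegE and 4.01, 4.01 and 3.77 in MPP, a difference of 4.31 ± 0.18. Hemgn, a nuclear factor of red cell precursors, rose by 0.98 ± 0.14 and Epb42, a band of the red cell skeleton, by 0.54 ± 0.16, a call that ended without MPP replicate 3 (0.0884) or PreMegE replicate 2 (0.0506).

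Megakaryocyte and platelet genes moved in both directions. Of 39 measured, 13 were called higher, 14 lower and 12 were not called, with a median of 0.03. Vwf, the von Willebrand factor of platelets and of platelet-biased stem cells, stood at 6.87, 7.22, 7.88 and 7.21 in PreMegE and at 4.39, 4.18 and 3.90 in MPP, a difference of 3.14 ± 0.20. Cavin2, a membrane-coat protein of platelets, stood at 6.33, 5.96, 7.13 and 7.41 in PreMegE and at 2.69, 3.27 and 3.00 in MPP, a difference of 3.72 ± 0.30. Coagulation factor F10 rose by 2.50 ± 0.34 and Rab27b, which moves platelet granules, by 2.27 ± 0.31. All PreMegE arrays lay above the MPP arrays for these 4 genes. Subunits of the von Willebrand receptor rose by 1.77 ± 0.22 for Gp5 and 0.81 ± 0.14 for Gp9, and Gp1bb by 2.19 ± 0.19, with -0.16 on the next brightest probe set of Gp1bb. Pf4, platelet factor 4 and a product of mature megakaryocytes, stood at 6.71, 6.99, 6.70 and 6.41 in PreMegE and at 7.04, 6.55 and 6.95 in MPP and overlapped. Among the falls, Thbs1, the thrombospondin of platelet granules, differed by -3.21 ± 0.19, Mmrn1, a multimerin of platelets and endothelium, by -3.44 ± 0.17, Nbeal2, needed for platelet granules, by -2.20 ± 0.22 and Selp, P-selectin, by -2.19 ± 0.28. The next brightest probe sets of these 4 genes gave -0.16, 0.07, 0.24 and -0.55, none of them called.

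Cytokine receptors moved in both directions, with more falls than rises. Of 30 measured, 5 were called higher, 14 lower and 11 were not called, with a median of -0.51. The falls include Flt3, for which MPP were sorted as positive. Epor, the erythropoietin receptor, stood at 7.59, 6.85, 8.10 and 7.71 in PreMegE and at 4.39, 4.88 and 4.26 in MPP, the largest rise among the receptors at 3.05 ± 0.24. Tek, the angiopoietin receptor of stem cells and endothelium, rose by 1.10 ± 0.20, the interferon gamma receptor Ifngr1 by 1.29 ± 0.15, the chemokine receptor Cxcr4 by 0.73 ± 0.20 and Il9r by 0.49 ± 0.14 from a low level. The call of Il9r ended without MPP replicate 2 (0.0757). Csf3r, the G-CSF receptor of granulocytes, stood at 4.99, 4.60, 4.85 and 4.85 in PreMegE and at 8.62, 8.07 and 8.10 in MPP, a difference of -3.44 ± 0.16. Csf1r, the M-CSF receptor of monocytes, stood at 5.71, 5.02, 6.07 and 5.28 in PreMegE and at 8.63, 8.54 and 8.57 in MPP, a difference of -3.06 ± 0.30. Both receptors were separate between the groups by more than 2 log2 units. On the brightest probe set of Csf1r the CD4+ T cell arrays of the series averaged 8.27, and its next brightest probe set gave -1.28 (adjusted p = 9.2e-05). Csf2rb, the shared beta chain of the IL-3, IL-5 and GM-CSF receptors, fell by 2.60 ± 0.21. Its paralogue Csf2rb2 fell by 1.66 ± 0.29, although these near-identical genes may share probes. Il12rb1 fell by 1.72 ± 0.18, Il21r by 0.91 ± 0.24 and Il7r, the receptor of lymphoid progenitors, by 1.95 ± 0.19, with -0.29 on the next brightest probe set of Il7r.

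Several other receptors depended on the probe set or on single arrays. Il1r1, the IL-1 receptor, differed by -3.06 ± 0.18 on its brightest and 0.03 on its next brightest probe set, Il6st, the gp130 chain, by -2.24 ± 0.18 and 0.17, and Ifnar2, a chain of the type I interferon receptor, by -1.61 ± 0.20 and 0.13. Conversely Il4ra and Il6ra, which differed by -0.06 ± 0.22 and -0.13 ± 0.17 and were not called, were called lower on their next brightest probe sets (-1.83 and -1.41). Il3ra, Il18r1 and Tnfrsf1b were called lower at -0.52 ± 0.16, -0.82 ± 0.24 and -0.55 ± 0.17. Il3ra lost its call without MPP replicate 1 (0.0957) or PreMegE replicate 4 (0.0538), and Il18r1 without MPP replicate 2 (0.067) or 3 (0.0892). Tnfrsf1b lost it without MPP replicate 1 (0.0972) or 3 (0.0975) and without PreMegE replicate 2 (0.0677), and its next brightest probe set gave 0.20. Ifnar1 (-0.50 ± 0.24), Il10ra (-0.61 ± 0.24), Tnfrsf1a (-0.36 ± 0.16) and Tgfbr1 (0.52 ± 0.20) missed the threshold on all arrays. They passed without PreMegE replicate 3 for Ifnar1 (0.0113) and Tnfrsf1a (0.0375), and without PreMegE replicate 1 for Il10ra (0.032) and Tgfbr1 (0.0229). Csf2ra, Il27ra, Lepr and Tgfbr2 differed by 0.22, 0.21, 0.14 and 0.06 and were not called.

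Transcription factors of the lymphoid and myeloid lineages were more often lower than higher in PreMegE. Of 25 measured, 1 was called higher, 13 lower and 11 were not called, with a median of -0.64. Irf8, which directs monocyte and dendritic cell fate, stood at 4.67, 4.0, 4.71 and 4.10 in PreMegE and at 8.32, 8.29 and 8.66 in MPP, a difference of -4.05 ± 0.23. Notch1, the receptor that starts T cell development, stood at 5.71, 6.19, 6.72 and 6.28 in PreMegE and at 9.96, 9.71 and 9.99 in MPP, a difference of -3.66 ± 0.22. Gfi1, the repressor of granulocyte and lymphoid progenitors, stood at 2.78, 2.80, 2.77 and 2.87 in PreMegE, under the lower quartile, and at 6.64, 6.47 and 6.28 in MPP, a difference of -3.66 ± 0.24. Its paralogue Gfi1b moved in the opposite direction, as given above. Satb1, a chromatin organiser of lymphoid cells, fell by 3.37 ± 0.17, and the myeloid C/EBP factors fell by 3.13 ± 0.23 for Cebpb and 2.53 ± 0.20 for Cebpa. Spi1, which encodes PU.1 and is known to oppose Gata1, stood at 5.65, 5.32, 5.62 and 5.61 in PreMegE and at 6.99, 6.19 and 6.75 in MPP, a difference of -1.09 ± 0.20. The inhibitors of bHLH factors fell by 2.41 ± 0.20 for Id3 and 2.95 ± 0.25 for Id2, the next brightest probe set of Id2 giving -0.30. Klf4, a factor of monocytes that is also an immediate early gene, showed the largest fall of the group at -7.74 ± 0.31.

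Pan-lymphoid factors differed little. Ikzf1 (Ikaros) stood at 10.65, 10.69, 10.98 and 10.88 in PreMegE and at 10.67, 10.47 and 10.64 in MPP, with overlapping arrays and a difference of 0.21 ± 0.16. Mef2c differed by 0.10 ± 0.21 and Ikzf2 (Helios) by -0.34 ± 0.21, Foxo1 by -0.35 ± 0.16, and none of them was called. Gata3, Lef1, Spib, Ebf1 and Pax5, factors of T and B cells, differed by -0.32, -0.15, 0.20, 0.02 and 0.03, with low levels in both populations. Tcf3 (0.60 ± 0.24) and Ikzf3 (0.36 ± 0.19) missed the threshold on all arrays and passed without PreMegE replicate 2 for Tcf3 (0.0396) and without PreMegE replicate 3 for Ikzf3 (0.00801). Bcl11a, a factor of lymphoid cells and a repressor of fetal globin, was the member called higher (0.54 ± 0.18). That call ended without MPP replicate 1 (0.0589), 2 (0.0943) or 3 (0.0687) and without PreMegE replicate 3 (0.0666). The next brightest probe set of Bcl11a was called higher as well, at 1.67 (adjusted p = 0.00173). Runx3 was called lower (-0.71 ± 0.25), a call that ended without MPP replicate 1 (0.127), 2 (0.102) or 3 (0.0743) and without PreMegE replicate 1 (0.113), 2 (0.133) or 4 (0.0557). Of the E proteins, which pair with other bHLH factors, Tcf12 was called lower at -0.87 ± 0.20 and Tcf4 at -0.64 ± 0.23, but their next brightest probe sets gave 0.23 and 1.09, with the value of Tcf4 called (adjusted p = 7.9e-05). The call of Tcf4 also ended without MPP replicate 1 (0.139), 2 (0.0553) or 3 (0.135) and without PreMegE replicate 1 (0.131), 2 (0.0662) or 4 (0.115).

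**Figure D3:**
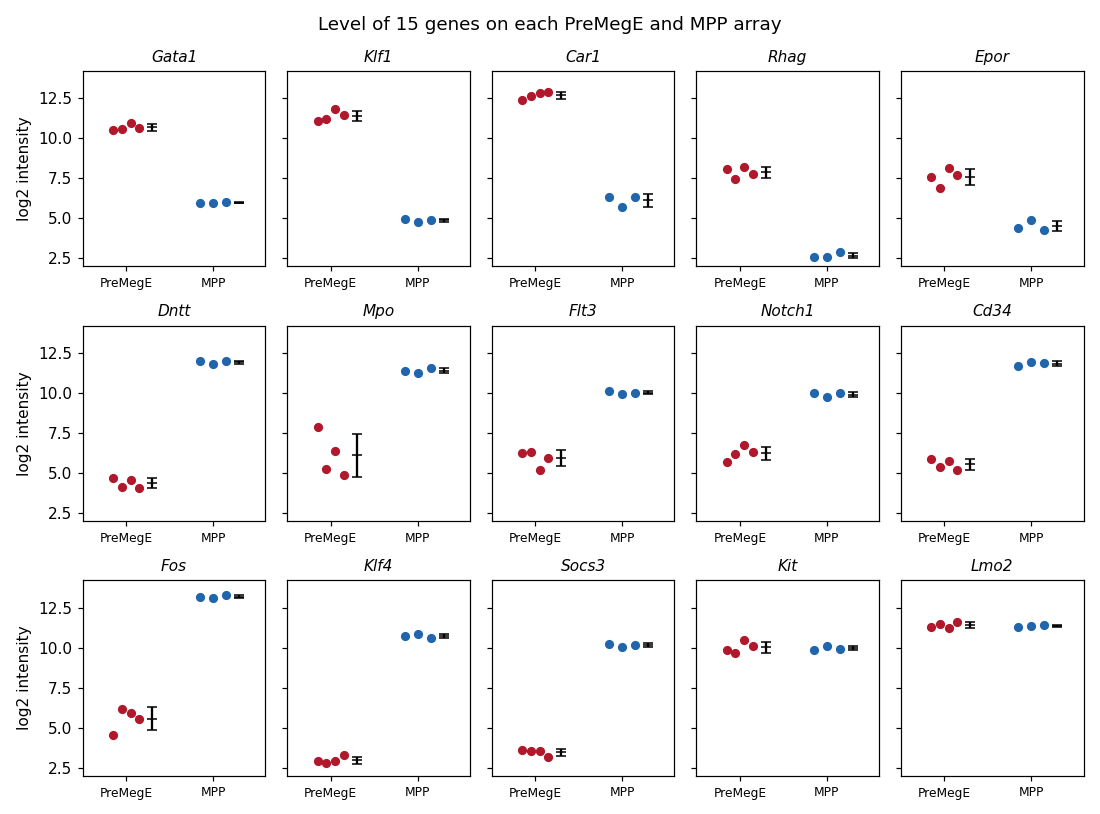
Log2 intensity of 15 genes on the 4 PreMegE arrays (red) and 3 MPP arrays (blue), 1 point per array, with the mean and SD of each group in black. The upper row shows genes higher in PreMegE, the middle row and Fos, Klf4 and Socs3 show genes lower there, and Kit and Lmo2 overlap between the groups.

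Lymphoid priming genes were mostly lower in PreMegE. Of 35 genes, 24 were called lower, 2 higher (a count of 1 when any single MPP replicate was left out) and 9 were not called, with a median of -1.65. The falls include the sort gene Flt3. Besides Dntt, large falls were those of Cd53, a tetraspanin of white cells, at 4.29, 4.31, 3.43 and 3.58 in PreMegE against 9.42, 9.58 and 9.41 in MPP, and of Cd69, a surface protein of activated lymphocytes, at 3.55, 2.92, 3.26 and 4.01 in PreMegE against 8.78, 8.51 and 8.91 in MPP. Their differences were -5.57 ± 0.22 and -5.30 ± 0.25, with no overlap between arrays. Lsp1, an actin-binding protein of lymphocytes, fell by 4.03 ± 0.15, Ltb (lymphotoxin beta) by 3.60 ± 0.20 and Cd27, a TNF-family receptor of lymphoid progenitors, by 3.10 ± 0.19. Ighm, the immunoglobulin heavy chain, stood at 9.35, 3.57, 4.36 and 3.61 in PreMegE and at 10.38, 9.94 and 10.73 in MPP. PreMegE replicate 1 thus approached the MPP arrays while the other PreMegE arrays lay near background. The difference of Ighm was -5.13 ± 1.17 with all arrays and -6.50 (adjusted p = 1.4e-05) without that replicate. Rag2, of the recombinase that assembles antigen receptors, was among the members called higher, at 0.75 ± 0.20 from levels of 4.59, 4.56, 3.86 and 4.76 in PreMegE and 3.54, 3.78 and 3.77 in MPP.

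Granulocyte and monocyte genes mostly fell. Of 35 measured, 27 were called lower, 2 higher and 6 were not called, with a median of -2.29. Emb, the adhesion protein embigin, stood at 4.27, 5.18, 4.0 and 3.73 in PreMegE and at 9.90, 10.03 and 10.29 in MPP, a difference of -5.78 ± 0.26. The granule proteases Prtn3 and Ctsg differed by -4.68 ± 0.30 and -4.37 ± 0.39, and the adaptor Tyrobp by -3.87 ± 0.27. Lyz1, a lysozyme, stood at 8.90, 8.42, 8.57 and 8.53 in PreMegE and at 11.78, 11.84 and 11.70 in MPP, a difference of -3.17 ± 0.16, although lysozyme paralogues may share probes. Levels of Mpo, Prtn3 and Ctsg were highest on PreMegE replicate 1 within its group. Without that replicate the differences of Mpo, Prtn3 and Ctsg were -5.90, -4.93 and -4.79, all still called. The 2 members called higher were Cst7, a cysteine protease inhibitor of cytotoxic and myeloid cells (1.58 ± 0.14), and Nkg7, a granule membrane protein of cytotoxic cells (0.75 ± 0.15).

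Secondary-granule and calprotectin genes of mature neutrophils went against this pattern. Of 15 measured, 7 were called higher, 1 lower and 7 were not called, with a median of 0.61, and the sum of their intensities was 699.9 to 2509.8 on the PreMegE arrays and 289 to 445 on the MPP arrays. S100a8 stood at 9.44, 6.84, 7.33 and 7.89 in PreMegE and at 5.64, 5.33 and 5.01 in MPP. S100a9, its partner in calprotectin, stood at 7.86, 6.11, 5.88 and 6.79 in PreMegE and at 3.63, 3.88 and 3.65 in MPP. Chil3, a chitinase-like protein, stood at 7.76, 5.18, 6.62 and 6.78 in PreMegE and at 2.94, 4.61 and 2.53 in MPP. PreMegE replicate 1 was the highest array for these genes, yet each other PreMegE array also lay above all MPP arrays. The differences were 2.55 ± 0.75 for S100a8 (adjusted p = 0.0157), 2.94 ± 0.49 for S100a9 (adjusted p = 0.00021) and 3.22 ± 0.67 for Chil3 (adjusted p = 0.0014), and 2.03, 2.54 and 2.83 without PreMegE replicate 1. Ngp, a granule protein, rose by 2.55 ± 0.65 (adjusted p = 0.00641). On the HSC arrays, made in the same study as the MPP arrays, Ngp stood at 9.01 ± 1.73 and Chil3 at 6.18 ± 1.63 (mean ± SD, n = 3). Their PreMegE means were 8.68 and 6.58, so high levels of these genes were not particular to PreMegE. The call of S100a8 ended without MPP replicate 3 (0.0602), and with limma's trend and robust options 3 of the 15 genes were called higher in place of 7. Padi4, an enzyme of neutrophil extracellular traps, was the member called lower (-3.56 ± 0.25), with a PreMegE mean of 2.96, under the lower quartile. Both sorts excluded lineage-positive cells, and the part of other cells in these values was not tested.

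**Figure D4:**
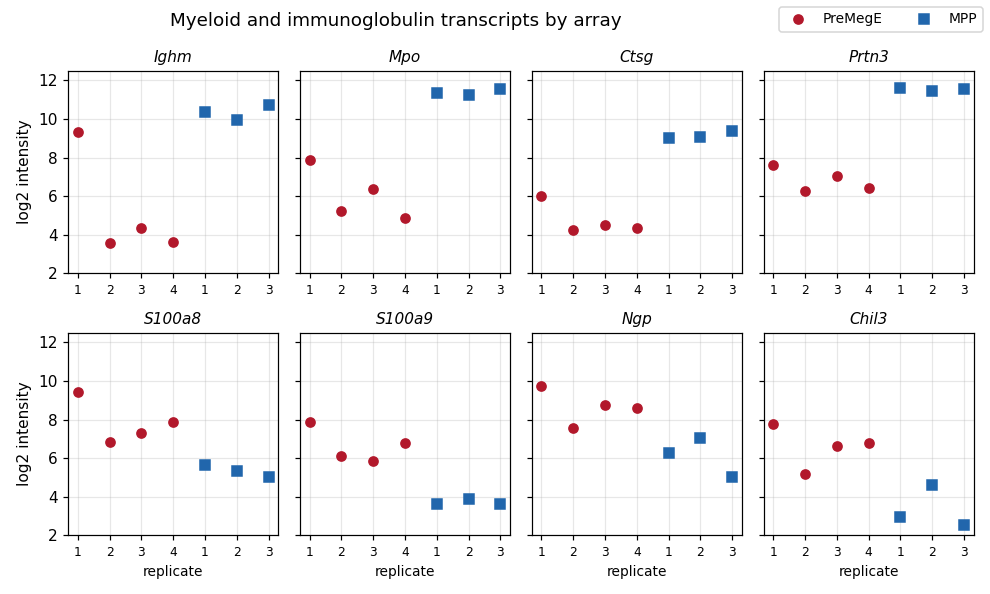
Log2 intensity of 8 myeloid and immunoglobulin genes on each array, with PreMegE replicates 1 to 4 in red and MPP replicates 1 to 3 in blue. PreMegE replicate 1 is the highest PreMegE array in every panel, and only S100a8, S100a9, Ngp and Chil3 are higher in PreMegE than in MPP.

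Class II antigen presentation genes were lower in PreMegE in part, with 6 of 13 called lower, 1 higher and 6 not called, at a median of -0.42. H2-Aa, a class II chain, stood at 6.23, 5.72, 5.79 and 5.88 in PreMegE and at 8.64, 8.69 and 8.74 in MPP, a difference of -2.79 ± 0.23, and its chaperone Cd74 fell by 1.76 ± 0.19, H2-Eb1 by 1.57 ± 0.23 and H2-Ab1 by 1.51 ± 0.24. H2-Oa, which regulates peptide loading, was the member called higher (0.83 ± 0.18).

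Genes of stem cells and multipotency were mostly lower in PreMegE. Of 40 measured, 30 were called lower, 2 higher and 8 were not called, with a median of -1.07. Cd34, a sialomucin of progenitors that was not part of either gate, stood at 5.89, 5.35, 5.76 and 5.16 in PreMegE and at 11.68, 11.91 and 11.89 in MPP, a difference of -6.29 ± 0.17. Adgrl4, an adhesion GPCR, stood at 5.36, 5.36, 5.52 and 5.56 in PreMegE and at 10.92, 10.82 and 10.93 in MPP, a difference of -5.44 ± 0.17. Procr, the protein C receptor that marks stem cells, stood at 2.99, 3.26, 2.84 and 2.87 in PreMegE and at 7.94, 8.03 and 8.15 in MPP, a difference of -5.05 ± 0.14. All PreMegE arrays lay at least 4 log2 units below all MPP arrays for these 3 genes, and those of Procr were at or under the lower quartile. Vldlr, a lipoprotein receptor, differed by -5.39 ± 0.24. The stem cell factor Hlf stood at 5.55, 5.26, 5.93 and 5.27 in PreMegE and at 10.43, 10.42 and 10.54 in MPP, a difference of -4.96 ± 0.16. Mecom (Evi1), a zinc-finger factor of stem cells, differed by -4.71 ± 0.21 and Hoxa9 by -2.28 ± 0.18, whereas their next brightest probe sets gave -0.12 and -0.61, neither called. The members called higher were Slamf1, a sort gene, and Mycn, a Myc family factor, at 0.95 ± 0.21 and with -0.20 on its next brightest probe set.

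Immediate early genes, which respond within minutes to growth factors or stress, gave the largest group difference. Of 40 immediate early and heat shock genes, 34 were called lower in PreMegE, each by at least 2-fold, while 2 were higher and 4 were not called, with a median of -3.66. The median level of the list was 5.10 to 5.53 on the PreMegE arrays and 9.77 to 9.93 on the MPP arrays. Fos stood at 4.54, 6.19, 5.92 and 5.55 in PreMegE and at 13.18, 13.09 and 13.27 in MPP, a difference of -7.63 ± 0.36 or 198-fold. Its AP-1 partners fell with it, Fosb at 3.33, 3.01, 3.05 and 3.14 in PreMegE against 10.81, 11.02 and 10.92 in MPP (-7.79 ± 0.22) and Jun at 4.93, 4.52, 4.71 and 4.62 in PreMegE against 10.83, 10.88 and 10.76 in MPP (-6.13 ± 0.23). No PreMegE array came within 6 log2 units of an MPP array for Fos or Fosb. Klf4 stood at 2.93, 2.78, 2.93 and 3.29 in PreMegE and at 10.71, 10.83 and 10.61 in MPP, and Klf6, another zinc-finger factor, differed by -6.43 ± 0.34. Feedback regulators fell too, with -6.69 ± 0.25 for Socs3, which limits cytokine receptor signalling, -6.67 ± 0.54 for Nfkbiz, a nuclear regulator of NF-κB target genes, and -5.06 ± 0.24 for the MAP kinase phosphatase Dusp1. Nr4a1, a nuclear receptor, differed by -5.36 ± 0.46, Atf3 by -4.92 ± 0.23 and Egr1 by -2.93 ± 0.30, with Egr1 still at 8.48, 8.36, 9.13 and 8.36 on the PreMegE arrays. Rgs2, a regulator of G protein signalling outside this list, stood at 5.03, 4.90, 5.56 and 5.52 in PreMegE and at 11.67, 11.51 and 11.59 in MPP, a difference of -6.33 ± 0.24.

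Heat shock genes within the list did not all follow. Hspa1b, an inducible Hsp70, fell by 4.08 ± 1.04, although its near-identical copy may share its probes. The SD of Hspa1b was 0.16 on the PreMegE arrays and 0.17 on the MPP arrays. Its wide standard error comes mainly from the HSC arrays (SD 3.39) and the CD4+ T cell arrays (SD 2.06), which share the fit. Hspa8, the constitutive Hsc70, stood at 13.13, 13.12, 13.12 and 13.08 in PreMegE and at 12.98, 12.77 and 12.85 in MPP and was not called, and its next brightest probe set was called lower at -0.49. The members called higher were Myc, a growth factor-induced regulator, at 9.43, 9.50, 9.94 and 9.45 in PreMegE against 8.24, 8.10 and 8.08 in MPP (1.44 ± 0.16), and the chaperone Hsph1 at 0.70 ± 0.18, with -0.28 on the next brightest probe set of Hsph1. On the HSC arrays, which were made in the same study as the MPP arrays, levels were 12.81 ± 0.06 for Fos, 8.44 ± 0.62 for Fosb, 7.07 ± 0.78 for Klf4 and 5.92 ± 0.70 for Socs3 (mean ± SD, n = 3). Members differed in where the HSC arrays lay. Levels there were 10.82 ± 0.09 for Dusp1 (means 11.13 in MPP and 6.06 in PreMegE) but 3.54 ± 0.56 for Atf3 (7.83 in MPP and 2.92 in PreMegE). On the splenic CD4+ T cell arrays, which came from another earlier study, they were 9.30 ± 1.14 for Fos, 3.47 ± 0.30 for Fosb, 3.47 ± 0.89 for Klf4 and 10.12 ± 0.27 for Socs3 (n = 2). The labels used here do not give handling times before RNA extraction, and the part of handling and of the differing 3' to 5' ratios in these values was not tested.

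Chemokine and cytokine transcripts were lower for 12 of 30 genes, higher for 3 and not called for 15, with a median of -0.25. Cxcl2, a neutrophil chemokine, stood at 2.37, 2.47, 2.56 and 2.76 in PreMegE, under the lower quartile, and at 9.82, 9.83 and 9.72 in MPP, a difference of -7.25 ± 0.28. Ccl3 stood at 2.90, 2.97, 2.72 and 2.89 in PreMegE and at 8.85, 8.11 and 8.86 in MPP, a difference of -5.74 ± 0.18, and was likewise under the lower quartile in PreMegE. Ccl9 fell by 4.83 ± 0.24 and Il18, an interleukin of the IL-1 family, by 3.90 ± 0.27. Cxcl1 was called higher at 1.00 ± 0.28, with 0.15 on its next brightest probe set, and the count of rises was 5 without PreMegE replicate 3. Of 21 receptors for chemokines and related ligands, 4 were higher, 3 lower and 14 not called, with a median of 0.0026. The sphingosine-1-phosphate receptor S1pr1 stood at 4.59, 4.15, 4.95 and 4.98 in PreMegE and at 5.85, 6.52 and 6.23 in MPP, a difference of -1.53 ± 0.22, while S1pr4 rose by 0.61 ± 0.15.

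Adhesion genes were higher for 5 of 33, lower for 16 and not called for 12, with a median of -0.51. Itga4, the alpha chain of VLA-4 that holds progenitors in the marrow, stood at 10.04, 10.19, 10.90 and 10.38 in PreMegE and at 8.55, 8.91 and 8.49 in MPP, a difference of 1.73 ± 0.20. Itgb2, the beta chain of leukocyte integrins, rose by 1.39 ± 0.14 and the tetraspanin Cd151 by 0.68 ± 0.16. Icam1, a ligand of leukocyte integrins, stood at 4.69, 4.81, 4.53 and 4.44 in PreMegE and at 7.95, 7.89 and 7.87 in MPP and fell by 3.29 ± 0.18. The tetraspanin Cd82 differed by -2.58 ± 0.21, but by -0.02 on its next brightest probe set.

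Cell division genes moved in both directions, with more falls than rises. Of 49 mitosis genes, 23 were called lower, 6 higher and 20 were not called, with a median of -0.57, and of 48 DNA replication genes, 29 were lower, 3 higher and 16 not called, with a median of -0.56. Aurkb, the kinase of the chromosomal passenger complex, stood at 6.13, 6.58, 6.68 and 6.29 in PreMegE and at 8.59, 8.94 and 8.79 in MPP, a difference of -2.35 ± 0.16. Racgap1, needed for cytokinesis, differed by -1.97 ± 0.26 and its partner Kif23 by -1.88 ± 0.24, with -0.05 on the next brightest probe set of Kif23. Uhrf1, which maintains DNA methylation at replication, fell by 1.63 ± 0.17, the polymerase subunit Pole by 1.53 ± 0.21, thymidine kinase Tk1 by 1.51 ± 0.18 and the helicase subunit Mcm5 by 0.96 ± 0.12. Mcm5 stood at 11.36, 11.44, 11.44 and 11.36 in PreMegE and at 12.39, 12.32 and 12.39 in MPP, high in both populations. The mitotic kinase Aurka differed by -1.38 ± 0.19, but by 0.30 on its next brightest probe set, and Rpa2, of the single-strand binding complex, fell by 1.43 ± 0.15. Mki67, which encodes the proliferation marker Ki-67, stood at 10.33, 11.26, 11.26 and 11.14 in PreMegE and at 10.26, 10.28 and 10.42 in MPP, with overlapping arrays, and rose by 0.68 ± 0.21 (adjusted p = 0.0195). Ncapg, a condensin subunit, rose by 0.82 ± 0.25, with 2.47 on its next brightest probe set, and the kinetochore protein Cenpk by 0.78 ± 0.21, with 0.02. Orc2, of the origin recognition complex, rose by 0.73 ± 0.16, with -0.19 on its next brightest probe set, and the polymerase subunit Pole2 by 0.72 ± 0.21. The call of Mki67 ended without MPP replicate 1 (0.0678) or 2 (0.0636) and without PreMegE replicate 2 (0.0616) or 4 (0.0521), that of Ncapg without MPP replicate 2 (0.0973) or PreMegE replicate 2 (0.0605) and that of Pole2 without MPP replicate 2 (0.0761). Kif20b rose by 1.14 ± 0.21, with 0.55 on its next brightest probe set, which was not called (adjusted p = 0.103). Rpa3, a partner of Rpa2, rose by 1.01 ± 0.23. The number of mitosis genes called higher was 10 under quantile normalisation and 3 without MPP replicate 2, and of replication genes 5 under quantile normalisation.

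Regulators of the cell cycle exit and entry were mixed, with 5 of 23 higher, 10 lower and 8 not called, at a median of -0.03. Cdkn1a (p21) stood at 6.04, 5.76, 6.26 and 6.02 in PreMegE and at 9.34, 9.69 and 9.46 in MPP, a difference of -3.47 ± 0.30. Cdkn1c (p57), an inhibitor of quiescent stem cells, fell by 1.94 ± 0.21, and the stress-response genes Gadd45b and Btg2 fell by 4.30 ± 0.22 and 2.70 ± 0.27. Ccng1, a p53 target, rose by 2.05 ± 0.18, the G1 kinase Cdk6 by 1.09 ± 0.18 and its partner cyclin Ccnd2 by 1.06 ± 0.20. Without MPP replicate 3 the count of rises was 3.

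Ribosome biogenesis genes were higher for 18 of 46, lower for 6 and not called for 22, with a median of 0.17. Ltv1, an assembly factor of the small subunit, stood at 7.59, 7.82, 8.02 and 7.91 in PreMegE and at 6.40, 6.73 and 6.72 in MPP, a difference of 1.22 ± 0.15, and Nop56 and Wdr12 rose by 0.90 ± 0.19 and 0.87 ± 0.14. Fbl (fibrillarin), a methyltransferase of ribosomal RNA, fell by 1.22 ± 0.17 and Pes1 by 0.70 ± 0.18. Ubtf, the RNA polymerase I factor, was called in opposite directions by its brightest probe set (-0.70 ± 0.16) and its next brightest one (3.26, adjusted p = 7.3e-07), so its direction cannot be given.

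Oxidative phosphorylation genes were higher for 9 of 55, lower for 16 and not called for 30, with a median of -0.07. Ndufa6 rose by 1.43 ± 0.17, Cox7a2 by 1.21 ± 0.17 and cytochrome c (Cycs) by 1.02 ± 0.15, while Cox7c fell by 2.52 ± 0.38, Ndufa4 by 1.13 ± 0.16 and Atp5b fell by 1.08 ± 0.19. Of 21 cholesterol synthesis genes, 2 were higher, 8 lower and 11 not called, with a median of -0.27. Ebp, a sterol isomerase, fell by 1.65 ± 0.16 and Insig1, a brake on sterol synthesis, fell by 1.59 ± 0.22, while Lss rose by 0.95 ± 0.18. The count of rises in this group was 4 under quantile normalisation.

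Interferon response genes split, with 9 of 33 higher, 14 lower and 10 not called, at a median of -0.19. The immunity-related GTPases, which are induced by interferon gamma, were among the rises, with Irgm1 at 9.47, 9.71, 9.93 and 9.80 in PreMegE against 7.67, 7.82 and 7.82 in MPP (1.96 ± 0.18), Igtp at 1.50 ± 0.16 and Iigp1 at 1.50 ± 0.24. Irf9, a subunit of the factor that type I interferon activates, rose by 1.40 ± 0.17. Irf1 stood at 8.42, 8.40, 8.47 and 8.62 in PreMegE and at 10.14, 10.39 and 10.13 in MPP, a difference of -1.74 ± 0.14, and Bst2 (tetherin) fell by 1.67 ± 0.18. Psmb8, of the immunoproteasome, fell by 1.98 ± 0.14, with -0.51 on its next brightest probe set, which was not called.

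**Figure D5:**
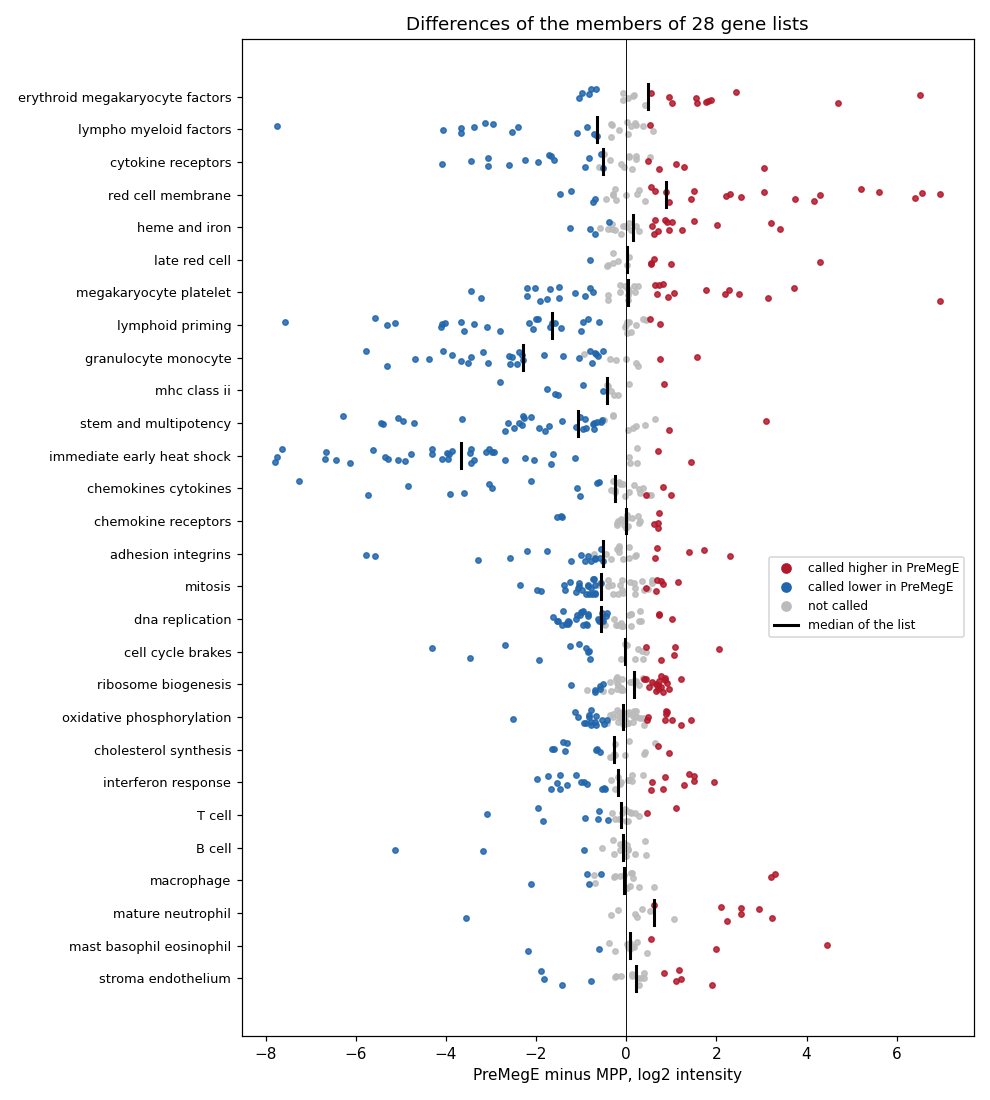
Differences between PreMegE and MPP (log2 intensity, PreMegE minus MPP) of the measured members of 28 gene lists, 1 point per gene, with the median of each list as a black bar. Red points are called higher in PreMegE, blue points lower and grey points are not called. Immediate early genes have the lowest median, at -3.66, and red cell membrane genes the highest, at 0.87.

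Markers of other cell types were examined because a sorted population can hold some of them. Of 22 T cell genes, 2 were called higher and 7 lower, of 19 macrophage genes 2 were higher and 4 lower, and of 18 B cell genes 3 were called, all lower. Without single arrays these counts changed, to 1 T cell gene higher without MPP replicate 2 or 3 or PreMegE replicate 1 or 2, to 2 macrophage genes lower without MPP replicate 2, and to 1 B cell gene higher without PreMegE replicate 1 or 3. Summed intensities were 532 to 598 in PreMegE and 932 to 973 in MPP for the T cell list, and 288 to 986 in PreMegE, with the top value on replicate 1, and 1477 to 2149.5 in MPP for the B cell list. The macrophage sum was 2487 to 3815 in PreMegE and 528 to 626 in MPP. That sum was carried by Apoe, a lipid carrier, at 10.69, 10.68, 11.53 and 11.33 in PreMegE and 7.86, 7.92 and 7.52 in MPP (3.29 ± 0.28), and by Slc40a1, which red cell precursors also express, whereas the macrophage lysosomal protein Cd68 fell by 2.12 ± 0.17. Of 16 mast cell, basophil and eosinophil genes, 3 were higher and 2 lower, with 1 lower without MPP replicate 1 or 3 or PreMegE replicate 2, 3 or 4. Slc45a3, a solute carrier, stood at 8.34, 8.15, 8.90 and 8.52 in PreMegE and at 3.84, 4.33 and 3.87 in MPP (4.46 ± 0.22) and Cpa3, a mast cell protease also found in progenitors, rose by 2.00 ± 0.20, while the mast cell factor Mitf differed by -2.18 ± 0.23, with 0.23 on its next brightest probe set. Of 20 stroma and endothelium genes, 5 were higher, 4 lower and 11 not called, and 8 were higher without PreMegE replicate 3. Among these, Col1a2 rose by 1.90 ± 0.20, while Bgn fell by 1.89 ± 0.21 and Emcn by 1.82 ± 0.15. No sex-linked gene of the 4 measured was called, and fitting the 7 arrays alone called 1, Uty (0.44). Of the 4, 3 had means under the lower quartile in both groups. A Y-linked gene among them stood at 2.70, 2.39, 2.32 and 2.76 in PreMegE and at 2.44, 2.36 and 2.33 in MPP. All 7 arrays lay under the lower quartile for it. The HSC arrays stood at 2.45, 6.02 and 5.68 for that gene, which widened its standard error in the fit of all 12 arrays. The absence of calls in that fit therefore cannot decide whether the groups differ in sex.

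Several of the largest rises belonged to no red cell or platelet list. St8sia6, a sialyltransferase, stood at 10.51, 10.43, 11.30 and 10.57 in PreMegE and at 3.20, 3.29 and 3.06 in MPP, where it was under the lower quartile, the largest rise of all at 7.52 ± 0.34. Ces2g, a carboxylesterase, stood at 10.18, 10.07, 9.72 and 10.04 in PreMegE and at 3.24, 3.61 and 3.48 in MPP, a difference of 6.56 ± 0.15. Zg16, a lectin-like protein first found in zymogen granules, stood at 10.56, 10.62, 9.97 and 10.65 in PreMegE and at 4.22, 4.44 and 4.42 in MPP, a difference of 6.09 ± 0.17. In all 3, every PreMegE array lay at least 5 log2 units above every MPP array. Gdpd3, a phospholipid-cleaving phosphodiesterase, rose by 6.01 ± 0.25, and Arap3, a GTPase-activating protein, by 4.81 ± 0.18. Rec114, a protein of meiotic recombination, rose by 5.13 ± 0.22 and Mylk3, a myosin light chain kinase known from heart muscle, by 4.75 ± 0.18, both from MPP levels under the lower quartile.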

How the data were processed

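Gene expression was measured on Affymetrix arrays with biotin-labelled total RNA, per the labels. The authors deposited a linear intensity for each probe set. The submitters' processing notes name RMA but neither its version nor the set of arrays it was run on. All tests here used log2 of the deposited intensity, without another normalisation or filter. Array names come from the sample titles, whereas the description of PreMegE replicate 4 says replicate 3. Of 45101 probe sets, the 64 controls were left out, 34945 had 1 gene symbol in the platform annotation, 932 several and 9160 none, and 34741 of those with 1 symbol had an entry in RefSeq on GRCm38.p6, which changed 0 symbols. Each gene was represented by the brightest of its named probe sets, by the mean of the 12 arrays, which gave 18193 genes, 9010 of them with more than 1 probe set.

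All 12 arrays entered 1 linear model of group means in limma 3.58.1 in R 4.3.3 (lmFit and eBayes), so the HSC and CD4+ T cell arrays add to the estimate of spread. PreMegE minus MPP was tested two-sided with Benjamini-Hochberg adjustment over all genes, and a gene is called at an adjusted p under 0.05. The fit was tested on simulated data with known changes. In counts, a rise or a fall means a called gene. Precision is limited by the number of arrays.

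The 29 lists held 826 distinct genes, of which 760 were measured, and some genes belong to several lists. The comparison, the gene lists and the rule for named genes were chosen with earlier results of these data known, so a list's direction is not independent evidence. The rule named the markers Gata1, Car1, Dntt and Mpo, the genes behind the sort, the 12 genes that rose most and the 12 that fell most among those called without overlap between arrays (clone names and the genes just listed left out), up to 4 called members per direction with the largest difference in each list, and every measured transcription factor and cytokine receptor of 3 lists. Of these 249 genes, 31 are not described. Named outside the rule, after their values were seen, were Kel, Slc14a1, Aqp9, Cd59a, Cpox, Urod, Tfr2, Hba-a1, Hbb-b2, Alas2, Slc4a1, Gp1bb, Gp5, Gp9, Pf4, Rab27b, Hlf, Mecom, Hoxa9, Egr1, Atf3, Nr4a1, Dusp1, Hspa1b, Hspa8, Lyz1, Tyrobp, Ltb, Lsp1, Mcm5 and the Zfp genes. Alternatives were quantile normalisation, cyclic loess, leaving out the lowest 25% of genes, fitting the 7 arrays alone, the mean of all probe sets or the next brightest probe set of a gene, limma's trend and robust options, averaging PreMegE replicates 3 and 4, the replicate number as a block, and leaving out each array in turn.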

Additional observations from a re-analysis of the deposited data

Results flagged for a closer look

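In 19 of 252 named genes, 1 PreMegE array lay apart from the other 3 by more than Dixon's critical value for the gap over the range. Chance flags about 1 in 20 groups, and genes of 1 array are not independent. PreMegE replicate 3 was the array set apart in 11 of them. It was highest for St8sia6 at 11.30 (others 10.43 to 10.57), Myc at 9.94 (9.43 to 9.5), Mycn at 9.73 (8.86 to 9.01), Egr1 at 9.13 (8.36 to 8.48), Ikzf2 at 9.01 (8.36 to 8.38), Racgap1 at 6.75 (5.62 to 5.78) and Nbeal2 at 5.63 (4.58 to 4.71). It was lowest for Zg16 at 9.97 (10.56 to 10.65), Cst7 at 8.31 (8.58 to 8.63), Cxcl1 at 5.25 (6.03 to 6.04) and Il4ra at 4.97 (5.62 to 5.66).

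PreMegE replicate 1 was highest for Fth1 at 11.40 (others 11.11 to 11.16), Ighm at 9.35 (3.57 to 4.36) and Ctsg at 6.03 (4.27 to 4.49), and lowest for Mki67 at 10.33 (11.14 to 11.26). PreMegE replicate 2 was highest for Csf2rb at 4.51 (4.13 to 4.18) and Ebf1 at 3.19 (2.71 to 2.76), and lowest for Spi1 at 5.32 (5.61 to 5.65). PreMegE replicate 4 was highest for F10 at 6.50 (5.68 to 5.74).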

How the results depend on the processing

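Against 6004 genes called (2454 higher and 3550 lower in PreMegE), leaving out 1 array at a time gave 4861 to 6412, with 1892 to 2702 higher and 2961 to 3710 lower. Equal replicate numbers do not pair the arrays (deviations from the group means correlated at 0.03, 0.03 and 0.08). With the replicate number as a block 5800 genes were called, 2356 higher and 3444 lower, which changed the calls of Fth1, Il3ra and Tcf4 among the named genes. The next brightest probe set exists for 9010 genes, of which 2611 (29.0%) were called, 1114 higher and 1497 lower. That setting tests fewer genes. Of 216 named genes called, 195 stayed called in the same direction in all 14 settings that kept their probe set. The 21 others were Alas1, Bcl11a, Epb42, Erg, Fth1, Hba-a2, Hspa1b, Il18r1, Il3ra, Il9r, Mki67, Mllt3, Ncapg, Nfe2, Ngp, Pole2, Runx3, S100a8, Slc48a1, Tcf4 and Tnfrsf1b. No named gene that was called turned its direction in those settings. On the next brightest probe set the difference was 0.30 for Aurka, 0.89 for Bach1, -0.16 for Cbfa2t3, 0.67 for Cd47, 0.34 for Erg, -0.16 for Gp1bb, -0.49 for Hspa8, -0.28 for Hsph1, 0.13 for Ifnar2, 0.035 for Il1r1, 0.17 for Il6st, 0.78 for Mafg, 0.23 for Mitf, 0.075 for Mmrn1, -0.20 for Mycn, 0.24 for Nbeal2, -0.19 for Orc2, 1.03 for Slc48a1, 0.23 for Tcf12, 1.09 for Tcf4, 0.20 for Tnfrsf1b and 3.26 for Ubtf, each opposite in sign to the brightest one. Averaging all probe sets of a gene likewise turned the sign for Bach1 (0.41), Cd47 (0.53), Mllt3 (0.066), Slc48a1 (0.17), Tcf4 (0.093) and Ubtf (1.28). The cause was not tested.

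The arrays carry no detection calls, so a level near the lower quartile bounds a difference rather than measuring it. The number of arrays limits the precision, and PreMegE and MPP arrays come from different studies, which cannot be told apart from the cell type.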

Other observations

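Numbered genes of the zinc-finger protein family (Zfp and a number), a group picked after its values were seen, were more often higher than lower in PreMegE. Of 305 measured, 111 were called higher (36.4%) and 25 lower (8.2%), with a median of 0.30, beside 13.5% and 19.5% over all genes. Among the largest rises, Zfp229 stood at 6.07, 5.92, 6.24 and 5.63 in PreMegE and at 3.14, 2.96 and 2.88 in MPP, a difference of 2.97 ± 0.20. Zfp758 rose by 2.85 ± 0.22 and Zfp809, a silencer of retroviral elements in mouse cells, by 2.48 ± 0.20. Zfp950 rose by 3.05 ± 0.41, with 0.26 on its next brightest probe set. Under quantile normalisation 138 were higher and 18 lower, after cyclic loess 125 and 22, without PreMegE replicate 1 113 and 21, and without PreMegE replicate 3 109 and 28. On the next brightest probe sets, 48 of 156 were higher and 10 lower. Members of this family can resemble each other in sequence, so their probe sets are not independent.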
